A study of Mus musculus with 10 samples.

Results

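Cycling T cells are described here in 1 single-cell library of sorted T cells from mouse axillary lymph nodes. A cell was taken as a cycling T cell when it held at least 1 unique molecular identifier (UMI, 1 counted mRNA molecule) of each of Cd3e, Mki67 and Top2a. Cd3e is a chain of the T cell receptor complex, Mki67 coats mitotic chromosomes and is the standard proliferation marker, and Top2a untangles replicated DNA. The rule found 914 cells among 7210 cells assigned to a condition (12.7%), where the 5 gene libraries of the series list 56333 cell barcodes. The values of these 3 genes chose the cells, so they are given as a description and support nothing.

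The study compared axillary nodes of wild-type female BALB/C mice, 8 weeks old. In 1 group 4T1 breast cancer cells, a metastatic line, had been placed in the fourth mammary fat pad. In another the cells were 67NR, a line from the same parental tumour that does not spread, and both groups were killed at 18 days at about 500 mm3. The third group was naive, with no treatment, and the labels give at least 3 mice for each condition. The naive hashtag is named CTRL.NDLN, that of the 4T1 group 4T1.pre-met and that of the 67NR group 67NR. The cells of the 3 conditions were stained with 1 hashtag antibody per condition, pooled and run in 1 library of the 10x 3′ chemistry.

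No file ties a cell to a mouse, so each condition is 1 sample and nothing below is a test between conditions. Intervals are 95% intervals that cover counting error only, not the spread between mice. Shares carry exact Clopper-Pearson intervals. Gene levels are summed UMIs per 1000000 UMIs of the same cells (CPM), and their log2 ratios carry exact conditional binomial intervals. These treat the summed UMIs as independent, so they also leave out the spread between cells and are too narrow where few cells hold many UMIs. A gene is called past the fold when its log2 ratio is at least 1 in size, its interval lacks 0 and it has 50 or more UMIs in the higher condition. Naive nodes gave the fewest cycling cells, so this minimum is harder to reach for genes higher there. Both comparisons with naive use the same naive cells, so they are not independent of each other.

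A T cell leaves rest after its receptor and costimulatory receptors are engaged, copies its DNA in S phase and divides after G2. S phase genes (the MCM helicase, Pcna, ribonucleotide reductase) are driven by E2F factors, whereas G2 and mitosis genes (cyclins A and B, Cdc20, Top2a) are driven late through CHR and CCAAT elements read by the MuvB complex and NF-Y. In lymph nodes dividing T cells include antigen-activated CD8 cells, which acquire granzymes and perforin, conventional CD4 cells, and Foxp3+ regulatory cells, which suppress responses and divide steadily in response to interleukin 2.

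Promoters of 3 such genes are printed to show both kinds of element, since the cells were chosen by a gene of the late kind. Each is the 150 bases before the RefSeq transcription start on GRCm38.p6, on the gene's strand, with Top2a at chr11:99024190-99024339 (minus), Cdc20, the activator of the anaphase-promoting complex, at chr4:118437344-118437493 (minus), and Mcm5, a subunit of the replicative helicase, at chr8:75109359-75109508 (plus). Capitals mark matches on either strand to the letters of the CHR element (TTTGAA), of the box named after its letters CCAAT, and of an E2F site (TTTCCCGC, TTTCGCGC, TTTGCCGC or TTTGGCGC).
Top2a: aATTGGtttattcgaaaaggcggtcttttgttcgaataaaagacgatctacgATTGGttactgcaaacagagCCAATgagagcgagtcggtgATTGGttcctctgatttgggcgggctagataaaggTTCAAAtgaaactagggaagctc
Cdc20: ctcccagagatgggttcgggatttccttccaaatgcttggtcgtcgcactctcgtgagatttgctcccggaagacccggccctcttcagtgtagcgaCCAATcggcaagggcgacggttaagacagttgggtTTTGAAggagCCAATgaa
Mcm5: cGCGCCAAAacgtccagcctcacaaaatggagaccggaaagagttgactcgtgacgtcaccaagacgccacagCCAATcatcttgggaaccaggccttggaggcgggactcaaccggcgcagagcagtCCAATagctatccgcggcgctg

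Top2a and Cdc20 each held 1 CHR match close to the start, and Mcm5 held an E2F match and no CHR match. The same letters were searched in windows from 250 bases before to 50 bases after the start. CHR was in 24 of 35 windows of the G2 and mitosis list (68.6%), 3 of 29 of the S phase list (10.3%) and 4893 of 27025 promoters in all (18.1%). E2F was in 1 of 35 (2.86%), 10 of 29 (34.5%) and 626 of 27025 (2.32%). CCAAT was in 74.3% of the G2 and mitosis windows, 55.2% of the S phase windows, 37.9% of all promoters and 11 of 12 windows of replication-dependent histone genes. A match describes the letters in a window and is neither a bound site nor a cause.

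The label was read against markers. The T cell markers summed to 6563 CPM in 4T1, 6607 CPM in 67NR and 6483 CPM in naive cycling cells, and sums of the cycle lists are given with the stage of the cycle. Medians of 12 Mki67, 21 Top2a and 15 Cd3e UMIs were set by the rule. Near the limit of the rule, 176 cells had exactly 1 UMI of Mki67 or of Top2a, 71 of them 1 of both. Just outside it, 407 other Cd3e cells had Mki67 without Top2a and 1162 had Top2a without Mki67, with a median of 1 UMI of that gene. Only 5 assigned cells had both cycle genes and no Cd3e.

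Depth differed between cycling and other T cells. The cycling cells had a median of 31170 UMIs (3887 to 152994) and the 6074 other Cd3e cells a median of 10308. Within the cycling cells the medians were 31446 UMIs in 4T1, 31050 in 67NR and 30656 in naive. A rule that asks for UMIs of 3 genes is easier to meet in a deeper cell, so shares are also given with each cell thinned to 5000 UMIs.

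Droplets with more than 1 cell were a further limit. Of 7755 droplets past the limits, 545 (7.03%) had no single hashtag. Of those 132 (24.2%) met the gene rule, and they were left out. About 271 doublets of 2 cells of the same condition are expected among the assigned cells (3.75%), which no hashtag can show. The 13 B cell markers summed to 332 CPM in 4T1, 128 CPM in 67NR and 121 CPM in naive cycling cells, and 1 4T1 cell held 1388 of their UMIs. In 67NR cycling cells Ms4a1 and Blnk were at 0. The 17 myeloid markers summed to 149, 166 and 149 CPM, the 11 NK markers to 62.8, 97.8 and 42.2 CPM with Ncr1, Klra8 and Klra4 at 0, and the 12 stromal markers to 74.9, 82.5 and 79.7 CPM with Col1a2, Col3a1 and Dcn at 0.

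Cycling T cells made up a larger share of the cells in both tumour-draining groups than in naive nodes. They were 371 of 2432 cells in 4T1 (15.3%, 13.8 to 16.7), 336 of 2447 in 67NR (13.7%, 12.4 to 15.2) and 207 of 2331 in naive (8.88%, 7.76 to 10.1). The share in 4T1 was 1.72 times that in naive (1.46 to 2.02), and in 67NR 1.55 times (1.31 to 1.82). The 2 tumour groups differed by a ratio of 1.11, with an interval of 0.969 to 1.27 that holds 1.

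The difference was smaller at equal depth. At 5000 UMIs per cell the shares were 8.30% in 4T1, 8.29% in 67NR and 5.90% in naive. The ratios to naive were then 1.41 (1.13 to 1.74) and 1.40 (1.13 to 1.74), and the 2 tumour groups were at 1.00 (0.828 to 1.21). The cells too shallow to thin were 83 in 4T1, 107 in 67NR and 163 in naive, 2 of them cycling. The gate of the sort, which can set such shares, is not given in the sources used here.

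The rule's own genes over all Cd3e cells describe the same choice of cells and support nothing. Mki67 was at 161 CPM in 4T1, 149.7 CPM in 67NR and 114 CPM in naive, with 94.7% to 97.0% of its UMIs in the cycling cells. Top2a was at 271, 245 and 195 CPM. Pcna, which loads DNA polymerase and was not part of the rule, was at 209, 202 and 204 CPM. The cycle genes Mcm5, Cdk1 and Ccnb1, also outside the rule, were higher in both tumour groups than in naive. Mcm5 was at 62.5 CPM in 4T1, 62.3 CPM in 67NR and 51.0 CPM in naive, and Cdk1 at 48.4, 44.3 and 33.3 CPM.

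**Figure D1:**
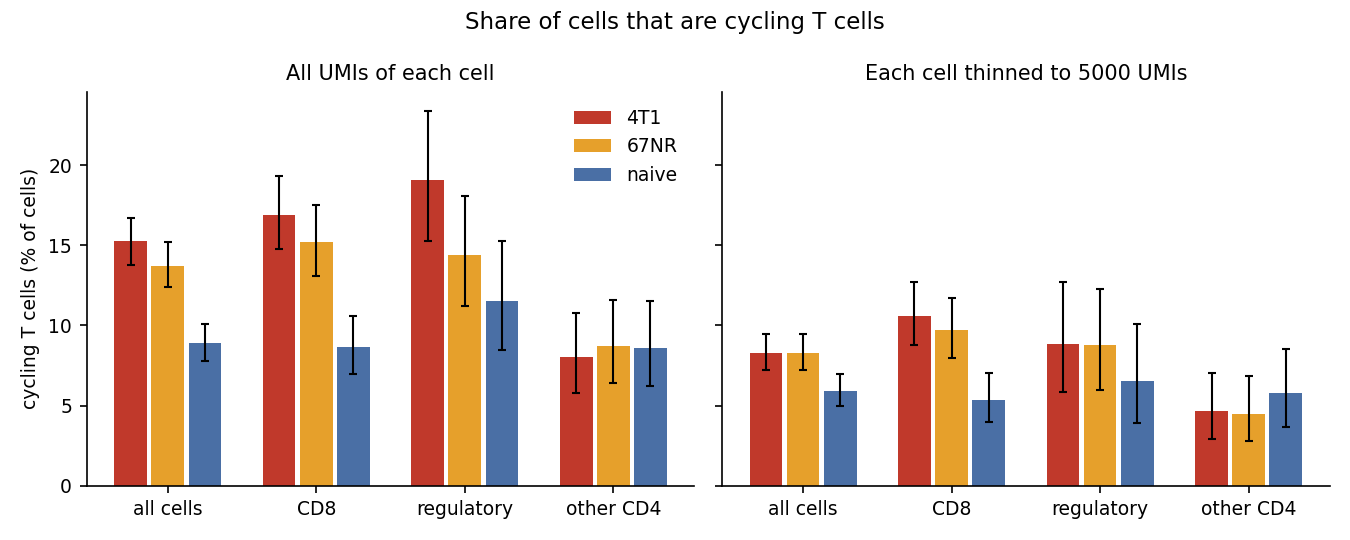
Bars give the percent of cells that were cycling T cells in 4T1, 67NR and naive nodes, for all cells and within CD8, regulatory and other CD4 cells; lines are exact 95% intervals for counting error. In the left panel (all UMIs) 15.3%, 13.7% and 8.88% of all cells were cycling, and in the right panel (5000 UMIs per cell) 8.30%, 8.29% and 5.90%; other CD4 cells stand at 8.03%, 8.72% and 8.58% in the left panel.

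The cycling cells were split by lineage from UMIs alone: regulatory (Foxp3 and no Cd8a or Cd8b1), other CD4 (Cd4 and none of the other genes), CD8 (Cd8a or Cd8b1 and neither Cd4 nor Foxp3) and mixed (both sides). CD8 cells were the commonest lineage in every condition, among cycling and other Cd3e cells alike. They were 187 of 371 cycling cells in 4T1 (50.4%), 166 of 336 in 67NR (49.4%) and 88 of 207 in naive (42.5%). Regulatory cells were 73 (19.7%), 62 (18.5%) and 42 (20.3%). Among the other Cd3e cells, CD8 cells were 45.9% in 4T1, 45.4% in 67NR and 45.8% in naive, and regulatory cells 15.4%, 18.0% and 15.9%.

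Other CD4 cells made up a smaller part of the cycling cells in the tumour groups when all UMIs were used. They were 40 of 371 in 4T1 (10.8%), 43 of 336 in 67NR (12.8%) and 41 of 207 in naive (19.8%). The ratio to naive was 0.544 in 4T1 (0.365 to 0.813) and 0.646 in 67NR (0.437 to 0.955). At 5000 UMIs the ratios were 0.599 (0.346 to 1.04) and 0.574 (0.329 to 1.00), so both intervals then reached 1. All lineage shares at 5000 UMIs use lineages called again from the thinned counts. Among the Cd3e cells that were not cycling, other CD4 cells were 22.9%, 22% and 21.5%.

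Mixed cells were 67 (18.1%), 63 (18.8%) and 32 (15.5%) of the cycling cells, and 10 had none of the 4 genes. The 162 mixed cells had a median of 2 Cd8a and Cd8b1 UMIs and 5 Cd4 and Foxp3 UMIs. Among cells with at least 5 UMIs of Cd4 and Foxp3, a CD8 UMI was present in 31.5% of cycling and 20% of other Cd3e cells. A median of 36584 UMIs in mixed cycling cells, against 33040 in CD8, 26721 in regulatory and 26418 in other CD4 cycling cells, moves with this class. Its part in the mixed share was not tested.

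**Figure D2:**
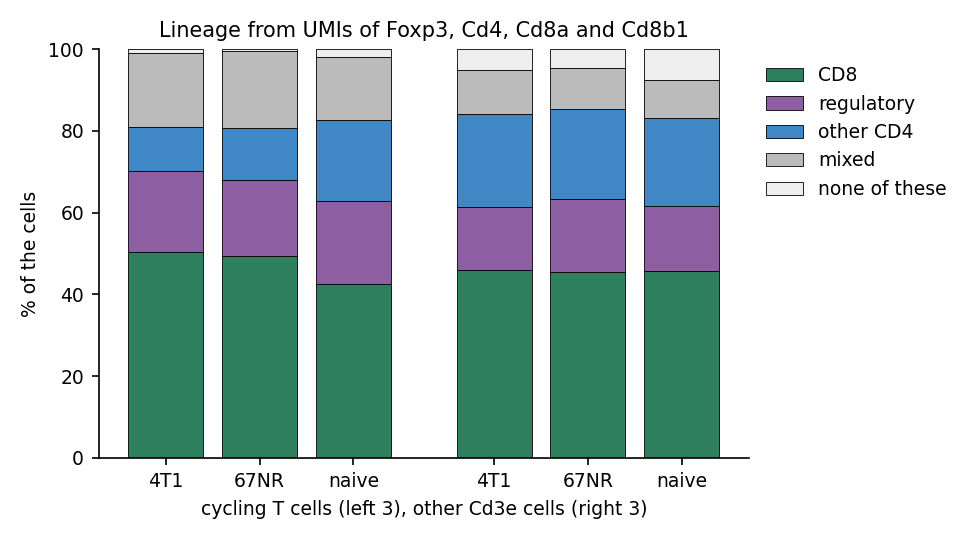
Stacked bars give the lineage of each cell from UMIs of Foxp3, Cd4, Cd8a and Cd8b1, as percent of the cycling T cells (left 3 bars) and of the other Cd3e cells (right 3 bars) of each condition. Other CD4 cells were 10.8%, 12.8% and 19.8% of the cycling cells in 4T1, 67NR and naive, and 22.9%, 22% and 21.5% of the other cells.

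Of the 3 lineages, CD8 cells had the highest ratio of cycling share to naive. It was 187 of 1105 cells in 4T1 (16.9%, 14.8 to 19.3), 166 of 1093 in 67NR (15.2%, 13.1 to 17.5) and 88 of 1017 in naive (8.65%, 7.0 to 10.6). The ratios were 1.96 (1.54 to 2.48) and 1.76 (1.38 to 2.24). At 5000 UMIs they were 1.98 (1.43 to 2.75) and 1.82 (1.30 to 2.53). Lineages were called again from the thinned counts, so the CD8 cells were not all the same. Cycling cells left without a UMI of the lineage genes were then 16.4% in 4T1, 18.0% in 67NR and 29.7% in naive. Their part in these ratios was not tested.

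Among regulatory cells the share was 73 of 382 in 4T1 (19.1%), 62 of 430 in 67NR (14.4%) and 42 of 364 in naive (11.5%). The ratio to naive was 1.66 in 4T1 (1.17 to 2.35) and 1.25 in 67NR (0.867 to 1.80). At 5000 UMIs both intervals held 1, with ratios of 1.35 (0.758 to 2.41) and 1.34 (0.761 to 2.34).

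In other CD4 cells the shares were 8.03% in 4T1 (40 of 498), 8.72% in 67NR (43 of 493) and 8.58% in naive (41 of 478). The ratios were 0.936 (0.617 to 1.42) and 1.02 (0.676 to 1.53) in 4T1 and 67NR. These intervals are wide and do not show that the shares were alike. The gap between CD8 and other CD4 cells differed between naive and both tumour groups. In naive nodes these lineages cycled at shares of 8.65% and 8.58%, whose intervals overlap. In 4T1 the CD8 interval of 14.8 to 19.3 lay above that of other CD4 cells, 5.80 to 10.8. In 67NR the CD8 interval of 13.1 to 17.5 likewise lay above that of other CD4 cells, 6.38 to 11.6.

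The stage of the cycle was read from the summed UMIs of 35 S phase genes and 41 G2 and mitosis genes per 10000 UMIs of a cell. The median cycling cell had 48.0 S phase UMIs in 4T1, 48.0 in 67NR and 46.1 in naive, against 5.79 to 6.05 in other Cd3e cells. It had 33.2, 31.1 and 36.2 G2 and mitosis UMIs, against 3.03 to 3.23. The G2 and mitosis sum exceeded the S phase sum in 142 of 371 cells (38.3%, 33.3 to 43.4), 119 of 336 (35.4%, 30.3 to 40.8) and 67 of 207 (32.4%, 26.0 to 39.2). These intervals overlap, and 70, 68 and 37 cells had sums that were nearly equal, so the split is a range and not a set of types.

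Within regulatory and other CD4 cells the medians lay further apart. Regulatory cycling cells had median S phase sums of 49.4 in 4T1, 38.8 in 67NR and 63.2 in naive, and a G2 and mitosis sum above the S phase sum in 43.8%, 41.9% and 28.6%. Other CD4 cycling cells had median S phase sums of 68.5, 30.9 and 34.0. Cells low in both cycle sums, described next, were 2 of 40, 11 of 43 and 8 of 41 of them. Their part in these medians was not tested. CD8 cycling cells were close to each other, at 47.6, 51.6 and 45.7, with the later sum higher in 34.8%, 33.1% and 33.0%.

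Some cells that met the rule held few UMIs of the cycle lists. Both sums were under 10 per 10000 UMIs in 32 of 371 cells in 4T1 (8.63%), 41 of 336 in 67NR (12.2%) and 17 of 207 in naive (8.21%), against 78.4% to 82.0% of other Cd3e cells. Of these, 29, 38 and 15 had a single UMI of Mki67 or Top2a. Without them the shares were 13.9%, 12.1% and 8.15%, and the ratios to naive 1.71 (1.45 to 2.02) and 1.48 (1.24 to 1.76). In regulatory cells they were 7 of 73, 11 of 62 and 0 of 42. Without them the regulatory ratio was 1.50 in 4T1 (1.05 to 2.14) and 1.03 in 67NR (0.700 to 1.51), and 4T1 over 67NR was 1.46 (1.04 to 2.04).

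**Figure D3:**
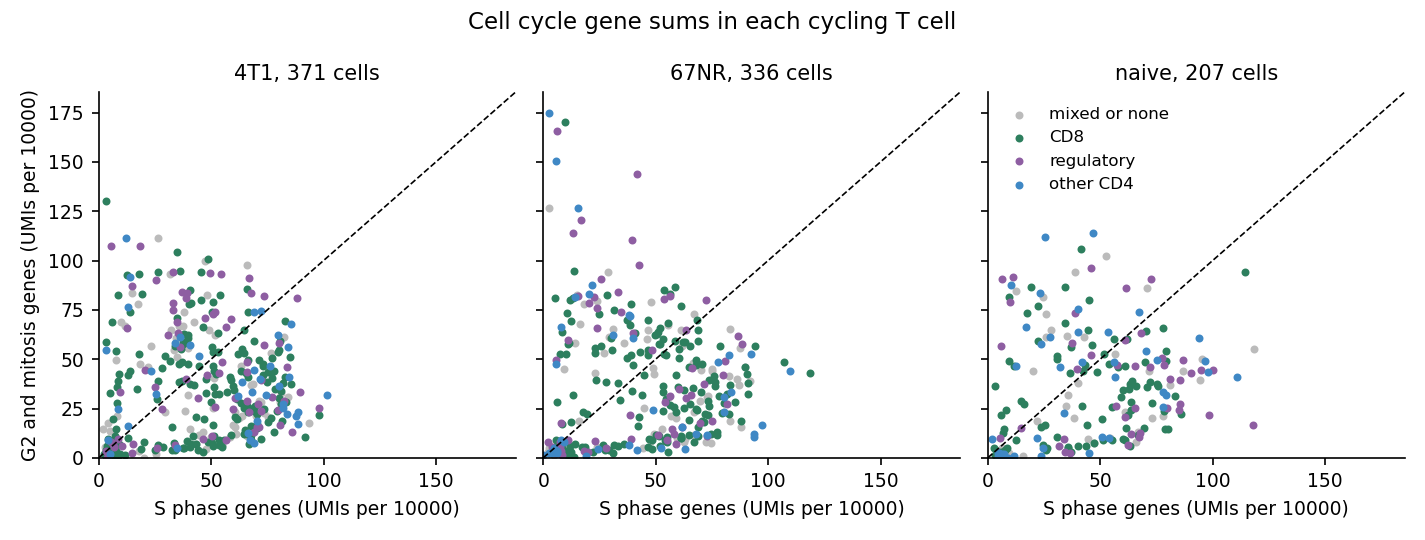
Each point is a cycling T cell, placed by its summed S phase (x) and G2 and mitosis (y) UMIs per 10000, in 1 panel per condition and coloured by lineage; the dashed line marks equal sums. The cells form an arc from S phase to mitosis in each panel with a small group near 0, and 38.3%, 35.4% and 32.4% of cells lie above the line.

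The genes of the cycling cells were then compared between conditions. Of 9167 genes measured, 85 were higher in 4T1 than in naive (0.927%) and 25 lower (0.273%). Of 9096, 87 were higher in 67NR than in naive (0.956%) and 31 lower (0.341%). Between 4T1 and 67NR, 46 of 9586 were higher in 4T1 (0.480%) and 31 lower (0.323%). In other Cd3e cells 0.478% were higher and 0.634% lower in 4T1 than in naive, 0.498% and 0.912% in 67NR than in naive, and 0.276% and 0.221% in 4T1 than in 67NR. The median of all genes in cycling cells was within 0.01 of 0 on the log2 scale in each comparison.

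Many of the extreme genes rested on single cells. Lyz2 and Il1b, which are myeloid genes, had 98.8% of their 67NR UMIs in 1 cell each, and Ms4a1, a B cell gene, had 63.9% of its 4T1 UMIs in 1 cell. Without the top cell of each gene, 11 and not 25 genes were lower in 4T1 than in naive, and 29 and not 46 were higher and 14 and not 31 lower in 4T1 than in 67NR. When a gene also had to have a UMI in 10% of the cells of the higher condition, a limit chosen after the values were seen, 37 genes were higher (0.409% of 9041) and 12 lower (0.133%) in 4T1 than in naive. In 67NR 60 were higher (0.665% of 9026) and 19 lower (0.211%), and between 4T1 and 67NR 10 were higher (0.106% of 9433) and 13 lower (0.138%).

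Over all cycling cells none of the 35 S phase genes and none of the 41 G2 and mitosis genes was past the fold in either comparison with naive. With 0.927% and 0.956% of all genes higher, such counts are near the background and do not show that the genes were alike. Their median log2 ratios were -0.02 and 0.04 in 4T1 and 0.01 and 0.03 in 67NR. Pcna was at 405 CPM in 4T1, 399 CPM in 67NR and 444 CPM in naive, and Ccnb1, the cyclin that starts mitosis, at 47.0, 50.1 and 45.3 CPM. None of 14 histone genes, 17 glycolysis genes, 22 respiratory chain genes, 24 activation genes or 16 homing genes was past the fold against naive either. Within other CD4 cells, 2 of 33 G2 and mitosis genes, the mitotic kinases Plk1 and Aurkb, were lower in 67NR than in naive. Of all 3895 genes measured there 1.23% were lower. Cells low in both cycle sums were 11 of 43 in 67NR and 8 of 41 in naive, and their part was not tested.

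Apart from the B cell markers in 4T1, described below, the list with the most genes past the fold against naive was that of CD8 and cytotoxic genes. Over all cycling cells 6 of its 19 measured genes were higher in 4T1 than in naive and 0 lower, with a median log2 ratio of 0.74. In 67NR 10 of 20 were higher and 0 lower, with a median of 0.99. Of all genes 0.927% were higher in 4T1 and 0.956% in 67NR. In the other Cd3e cells the medians were 0.13 and 0.15. The level of such a list can follow the share of CD8 cells, which was 50.4%, 49.4% and 42.5%, so it was also read within that lineage.

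Within cycling CD8 cells 8 of 19 cytotoxic genes were higher in 4T1 than in naive and 0 lower (median 0.86), where 1.02% of 7542 genes were higher. In 67NR 7 of 20 were higher and 1 lower (median 0.83), where 1.16% of 7593 were higher. Other CD8 cells had medians of 0.16 and 0.14. In the same cycling CD8 cells 3 B cell markers were measured in 4T1 (median 0.98) and 2 in 67NR (median 2.25), with Igkc past the fold in both. The 2 NK markers measured had medians of 0.53 and 0.86, with Eomes, also a cytotoxic list gene, past the fold in 67NR. Without the cell holding the most of the cytotoxic list in each condition its medians were 0.81 and 0.83. The median cycling CD8 cell had 19.5 UMIs of this list per 10000 in 4T1, 21.2 in 67NR and 16.9 in naive. By the median cell both tumour groups were closer to naive than by the summed levels of 31.3, 25.1 and 18.8 per 10000.

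Gzmb and Prf1 encode granzyme B and perforin, the effector pair of lymphocyte killing. Gzmb was at 128 CPM in 4T1, 134 CPM in 67NR and 50.2 CPM in naive cycling CD8 cells, with log2 ratios of 1.35 (1.11 to 1.59) and 1.41 (1.18 to 1.66). In naive 55.1% of those UMIs came from 1 cell. It was present in 21.9%, 27.7% and 19.3% of the cells, and at 5000 UMIs in 16.0%, 15.7% and 6.82%. Both tumour groups were above naive by level and by thinned share, and closer to it by the unthinned share.

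Prf1 was at 31.2 CPM in 4T1, 37.7 CPM in 67NR and 13.7 CPM in naive, with log2 ratios of 1.19 (0.73 to 1.67) and 1.46 (1.02 to 1.94). Its UMIs were found in 49.7%, 55.4% and 31.8% of cycling CD8 cells, and at 5000 UMIs in 18.7%, 16.3% and 11.4%. In other CD8 cells Prf1 was at 40.2, 40.9 and 34.0 CPM. So cycling CD8 cells of the tumour groups were near the level of the CD8 cells around them, and those of naive nodes were below it.

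Both genes were also read in cycling cells outside the CD8 lineage, where the source of their UMIs was not tested. Among other CD4 cycling cells, with a median of 26418 UMIs, Gzmb was found in 3 of 40, 1 of 43 and 3 of 41 cells, and Prf1 in 0, 2 and 1. The CD8 shares of both genes were above these in all 3 conditions.

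Gzmm, the granzyme of innate-like and memory killer cells, was at 45.0 CPM in 4T1, 43.5 CPM in 67NR and 10.3 CPM in naive cycling CD8 cells. The log2 ratios were 2.13 (1.63 to 2.67) and 2.09 (1.58 to 2.63), against 0.03 and 0.56 in other CD8 cells. It was present in 29.9%, 35.5% and 17.0% of cycling CD8 cells, and in 1 of 40, 0 of 43 and 4 of 41 other CD4 cycling cells. Gzmk, a granzyme of memory-like CD8 cells, was at 50.9, 66.3 and 21.9 CPM, and was present in 18.7%, 26.5% and 11.4%. Both granzymes were higher in both tumour groups.

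Gzma, granzyme A, separated the 2 tumours. It was at 569 CPM in 4T1, 109 CPM in 67NR and 109 CPM in naive cycling CD8 cells, with a log2 ratio to naive of 2.38 in 4T1 (2.23 to 2.53) and -0.01 in 67NR. The share of cells with a UMI was closer, at 30.5%, 25.9% and 23.9%, so the difference lay mainly in the level per positive cell. The highest cell held 13.7% of the 4T1 UMIs, 26.3% of those of 67NR and 45.8% of those of naive.

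Eomes, a transcription factor of memory and effector CD8 cells, was highest in 67NR. It was at 40.7 CPM in 4T1, 74.3 CPM in 67NR and 24.8 CPM in naive, with log2 ratios of 0.72 and 1.58 (1.25 to 1.93). Its UMIs were found in 43.9%, 57.8% and 37.5% of cycling CD8 cells. Ccl4 and Xcl1, chemokines that draw in T cells and dendritic cells, were past the fold in 67NR against naive, with log2 ratios of 2.01 and 1.07. In 67NR 26.7% of the Ccl4 UMIs came from 1 cell. Set directly against each other in cycling CD8 cells, the tumour groups had 1 of 20 cytotoxic genes higher in 4T1 (Gzma) and 1 lower (Ccl4), where 0.362% of 8281 genes were higher and 0.302% lower.

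Ccl5, a chemokine of memory and effector cells, was at 323 CPM in 4T1, 175 CPM in 67NR and 90.0 CPM in naive cycling CD8 cells, a log2 ratio of 1.84 and 0.96. Fasl, the death ligand, was at 32.0, 24.6 and 13.4 CPM, and Klrd1, the CD94 receptor chain, at 95.1, 70.5 and 43.6 CPM. Nkg7, a granule protein, was at 483, 461 and 267 CPM. Ifng, the cytokine of effector cells, was at 33.0, 16.6 and 37.9 CPM, but 63.2% of the naive UMIs came from 1 cell. Cd8a itself was level, at 291, 262 and 301 CPM.

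**Figure D4:**
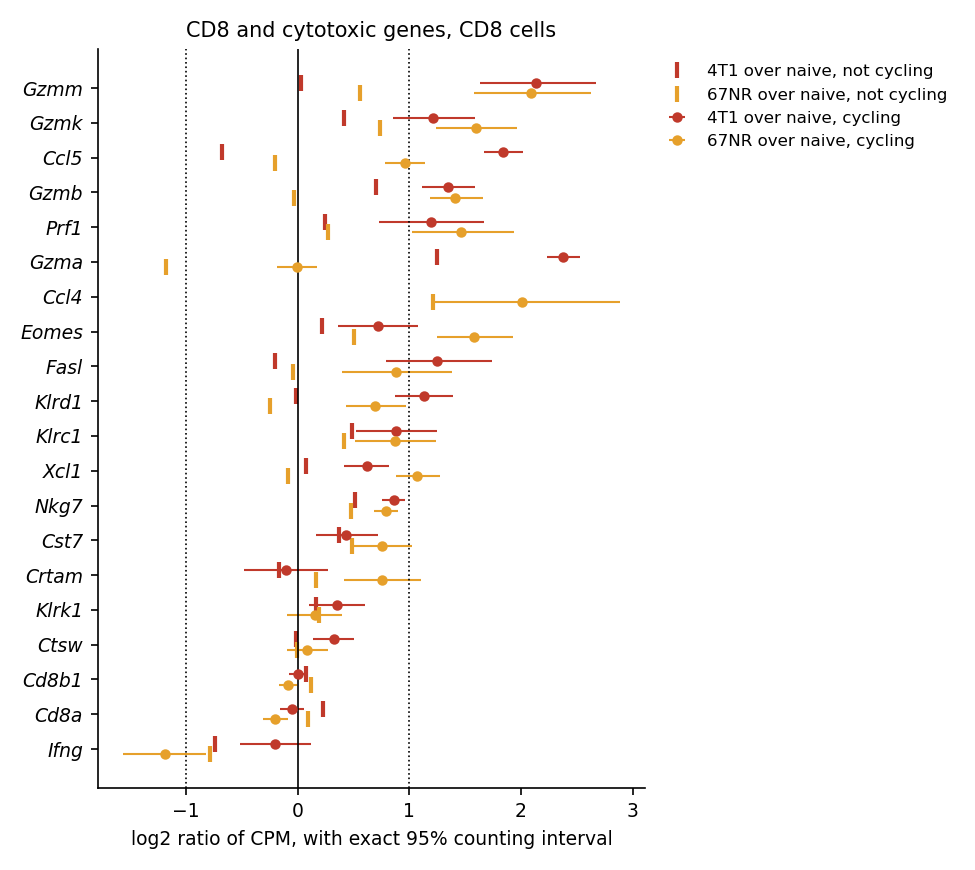
Points give the log2 ratio of CPM to naive of the CD8 and cytotoxic genes in cycling CD8 cells of 4T1 and 67NR nodes, with exact 95% counting intervals; short vertical marks give the ratio in other CD8 cells and dotted lines mark a log2 ratio of 1 in size. Most points lie right of 0, with Gzmm at 2.13 and 2.09, while Gzma stands at 2.38 in 4T1 and -0.01 in 67NR.

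Among the other genes past the fold in cycling CD8 cells and found in 10% of cells, 5 are named here, chosen after their values were seen. Lgals3, galectin 3, was at 133 CPM in 4T1, 92.7 CPM in 67NR and 18.8 CPM in naive cycling CD8 cells, log2 ratios of 2.82 (2.46 to 3.21) and 2.30 (1.93 to 2.69). In other CD8 cells its ratios were 0.76 and -0.55. Ccr2, a receptor for inflammatory chemokines, was at 22.6, 21.3 and 6.27 CPM. Itga4, the alpha chain of the VLA-4 integrin, was at 66.2, 90.5 and 30.8 CPM. S100a6 was at 350.4 CPM in 4T1 and 136 CPM in naive, and Plek, the kinase substrate pleckstrin, at 61.6, 74.0 and 26.8 CPM.

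Checkpoint genes, the inhibitory receptors of activated T cells, gave 3 of 12 genes higher and 0 lower in each tumour group, with medians of 0.01 and -0.05, where 1.02% and 1.16% of all genes were higher. Havcr2, which encodes TIM-3, was at 21.4 CPM in 4T1, 19.8 CPM in 67NR and 8.83 CPM in naive cycling CD8 cells. Entpd1, the ectonucleotidase CD39, was at 25.4, 14.2 and 4.56 CPM, log2 ratios of 2.48 (1.74 to 3.32) and 1.64 (0.87 to 2.50). Tigit was at 13.9, 15 and 6.84 CPM.

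Pdcd1, which encodes PD-1, was at 70.7, 70.8 and 40.2 CPM, ratios of 0.82 in both that were not past the fold. A UMI was found in 40.1%, 39.2% and 27.3% of cells, and at 5000 UMIs in 19.8%, 18.1% and 6.82%. Lag3, another inhibitory receptor, was at 20.7, 22.6 and 19.4 CPM. Without the cell of each condition with the most UMIs of the list, Pdcd1 was past the fold in both groups, with 4 of 12 genes higher.

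In cycling CD8 cells type I interferon response genes were on the lower side. Of 18 measured, 0 were higher in 4T1 than in naive and 5 lower (median -0.54), and in 67NR 0 were higher and 6 lower (median -0.78). The background was 0.265% and 0.540% lower. In other CD8 cells the medians were -0.14 and -0.02. In other CD4 cycling cells 2 of 9 genes were higher and 0 lower in 4T1 (Isg15 and Gbp2, median 0.36). In 67NR 1 of 7 was higher and 0 lower (Ifi27l2a, median 0.54). Of all genes in these cells 0.645% were higher and 1.27% lower in 4T1, and 1.41% and 1.23% in 67NR. In regulatory cycling cells 0 of 10 were past the fold in either group, with medians of 0.09 and 0.39. Of all genes there 1.27% were higher and 0.379% lower in 4T1, and 1.60% and 0.295% in 67NR.

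Isg15, a ubiquitin-like protein made on interferon signalling, was at 44.4 CPM in 4T1, 37.2 CPM in 67NR and 120.2 CPM in naive. Ifit1, which binds viral RNA, was at 3.79, 3.11 and 26.5 CPM, with 47.3% of the naive UMIs in 1 cell. That was partly a matter of single cells: 1 naive CD8 cell held 11.6% of the list's UMIs, and without the top cell of each condition 2 and 3 genes were lower, with medians of -0.39 and -0.56. The median cell had 12.6, 16.0 and 14.7 list UMIs per 10000, so by the median cell 67NR was not below naive.

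Some other genes, chosen after their values were seen, were lower in tumour groups over all cycling cells. Tesc, a calcium-binding protein, was at 52.0 CPM in 4T1, 48.4 CPM in 67NR and 107 CPM in naive, log2 ratios of -1.04 and -1.14, and was present in 73.4% of naive cycling cells. Nav2 was at 36.4 CPM in 4T1 against 78.9 CPM in naive. In 67NR Lmna, the nuclear lamin A, was at 51.0 CPM against 132 CPM in naive, Fosb, an immediate early gene, at 13.4 against 33.1 CPM, and Rgcc, a regulator of cell cycle kinases, at 45.6 against 95.7 CPM. Ccr7, the receptor that brings T cells to the node, was at 487, 423 and 555 CPM, within the fold. Immediate early genes as a list gave 1 higher and 2 lower of 18 in 67NR, where 0.956% of all genes were higher and 0.341% lower. In 4T1 they gave 0 of 17 either way, where 0.927% were higher and 0.273% lower.

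Cycling regulatory cells had their own differences. Of 16 regulatory T genes measured in 4T1 against naive, 0 were past the fold, 9 had intervals above 0 and the median was 0.35. Of all 5280 genes 1.27% were higher, 0.379% lower and 12.6% had intervals above 0, and the median of all genes was 0.09. In 67NR 3 of 18 were higher, 15 had intervals above 0 and the median was 0.72. Of all 4752 genes 1.60% were higher, 0.295% lower and 15.7% had intervals above 0, and the median of all was 0.05. In other regulatory cells the medians were 0.45 and 0.31. Without the top cell of each condition the 67NR median was 0.66, with 5 genes higher. The cycling regulatory cells were 73, 62 and 42, so the smallest group sets the precision.

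Il2ra, the high-affinity chain of the interleukin 2 receptor, was at 307 CPM in 4T1, 305 CPM in 67NR and 154 CPM in naive cycling regulatory cells. The log2 ratios were 0.99 (0.77 to 1.22) and 0.98 (0.75 to 1.22), just inside the fold, and without the top cell of each condition it was past the fold in both. It was present in 91.8%, 91.9% and 78.6% of these cells, at 5000 UMIs in 58.9%, 62.9% and 38.1%, and in 16.0%, 24.1% and 13.6% of cycling CD8 cells. In other regulatory cells Il2ra was at 515, 553 and 297 CPM, so the same order held outside the cycle at higher levels.

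Klrg1, a receptor of terminally differentiated cells, was at 65.3 CPM in 4T1, 130.4 CPM in 67NR and 34.2 CPM in naive, log2 ratios of 0.93 and 1.93 (1.47 to 2.42). It was present in 31.5%, 45.2% and 21.4% of cycling regulatory cells and in 6.42%, 5.42% and 2.27% of cycling CD8 cells. Il1rl1, the receptor for interleukin 33, was at 109.7, 162 and 78.6 CPM. Both receptors mark tissue-type regulatory cells, and both were highest in 67NR.

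The costimulatory receptors Tnfrsf4 (OX40) and Tnfrsf9 (4-1BB) were at 884, 973 and 585 CPM and at 436, 477 and 256 CPM, within the fold with intervals above 0. Foxp3, which defines the lineage and was used to assign it, was at 135, 166 and 118 CPM. Ctla4, the inhibitory receptor of regulatory cells, was at 780.1, 907 and 803 CPM. Lrrc32, which holds latent TGF-beta on the surface, was at 50.4 CPM in 67NR and 23.3 CPM in naive. Between the tumour groups 0 of 18 regulatory T genes were higher in 4T1 and 1 lower (Lrrc32), with 11 intervals below 0 and a median of -0.27, where 0.605% of 5621 genes were higher, 0.623% lower and 12.1% had intervals below 0.

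Genes outside the list, again picked after their values were seen, were past the fold as well. Gpr183, a receptor for oxysterols that guides cells in the node, was at 101 CPM in 4T1, 121 CPM in 67NR and 45.1 CPM in naive. Il1r2, the decoy receptor of interleukin 1, was at 47.3, 77.1 and 21.8 CPM. Satb1, a chromatin organiser, was at 159, 213 and 73.5 CPM. Prdm1, the factor Blimp-1 of effector regulatory cells, was at 37.6, 36.5 and 17.5 CPM. Tcf7, the factor TCF-1 of resting and stem-like cells, was at 17.2, 35.3 and 51.7 CPM, a log2 ratio of -1.59 in 4T1 (-2.17 to -1.02), and was present in 20.5%, 33.9% and 35.7% of cells. These 5 genes divide into 4 higher and 1 lower in 4T1 than in naive.

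The lower S phase sums of regulatory cells in the tumour groups can be split by gene. These are the same UMIs of the same cells, so the counts describe the sums and do not support them. Cells low in both cycle sums were 7 of 73 in 4T1, 11 of 62 in 67NR and 0 of 42 in naive, and their part was not tested. In 67NR cycling regulatory cells 25 of 34 S phase genes had intervals below 0 against naive (median -0.37), where 9.91% of all genes did. In 4T1 they were 9 of 35 (median -0.19), where 6.65% did. Myc, the growth factor-induced regulator, was at 32.4 CPM in 4T1 and 10.2 CPM in naive, and Cdkn1a, the p21 inhibitor of cyclin-dependent kinases, at 30.4 against 75 CPM. Neither S phase list had a gene past the fold.

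**Figure D5:**
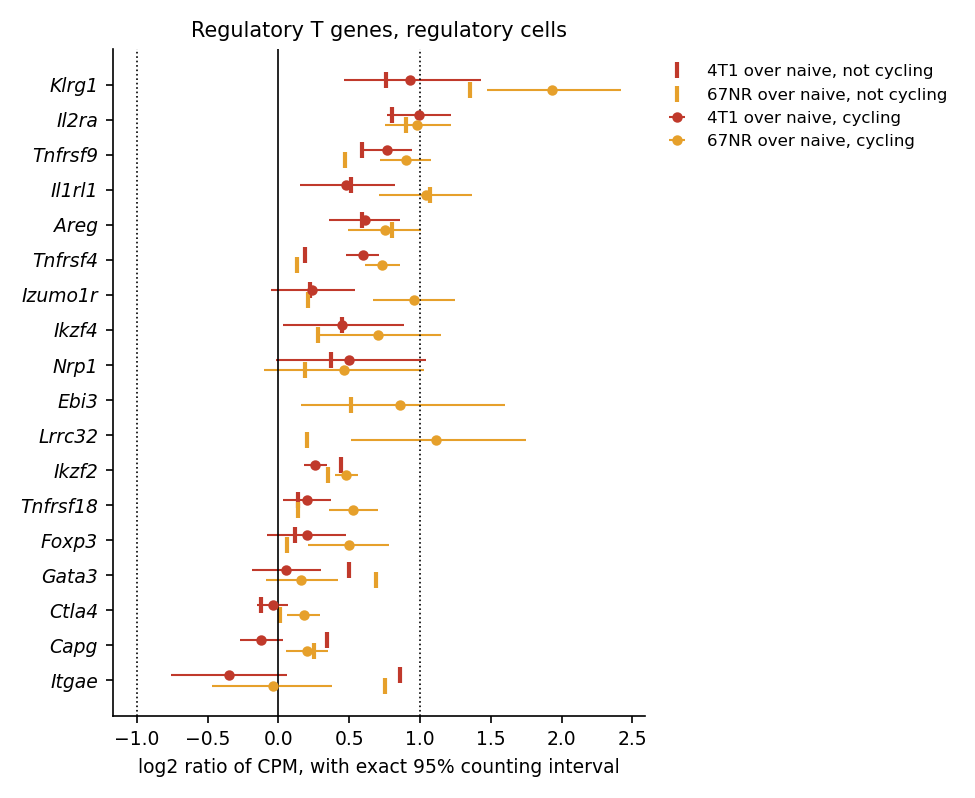
Points give the log2 ratio of CPM to naive of regulatory T genes in cycling regulatory cells of 4T1 and 67NR nodes, with exact 95% counting intervals; short vertical marks give other regulatory cells, and dotted lines mark a log2 ratio of 1 in size. Il2ra lies at 0.99 and 0.98 and Klrg1 at 0.93 in 4T1 and 1.93 in 67NR; Foxp3 stands nearer 0.

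Other CD4 cycling cells were too few for most genes, with 40, 43 and 41 cells. In 4T1 27 of 4184 genes were higher than in naive (0.645%) and 53 lower (1.27%), and in 67NR 55 of 3895 were higher (1.41%) and 48 lower (1.23%). Between the tumour groups 46 of 4139 were higher in 4T1 (1.11%) and 72 lower (1.74%). Cells low in both cycle sums were 2 of 40, 11 of 43 and 8 of 41, and their part in the counts of cycle genes was not tested. In 4T1 17 of 33 S phase genes had intervals above 0 against naive (median 0.35), where 10.3% of all genes did. In 67NR 2 of 31 were above 0 and 2 below (median -0.06), while 8 of 12 histone genes had intervals below 0 (median -0.40), where 15.0% of all genes did. Of their cytotoxic genes only Cst7, Fasl and Ifng were measured. All 3 were higher in 67NR than in naive (median 1.38) and lower in 4T1 than in 67NR (median -1.52).

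The 2 tumour groups differed from each other in few genes, and Il10ra, Rgs16 and Hlf below were chosen after their values were seen. Apart from Gzma, the heat shock genes Hspa1a and Hspa1b were lower in 4T1, at 13.9 against 39.2 CPM and 13.1 against 32.6 CPM over all cycling cells, while none of the 18 genes of their list was past the fold against naive. Within lineages some were: both genes were higher than naive in CD8 cycling cells of both tumour groups and lower in other CD4 cells of 4T1. In regulatory cells Hspa1a was lower in 4T1 and Hspa1b higher in 67NR. In CD8 cells none of the 18 was past the fold between the tumours. Il10, the suppressive cytokine, was at 0.737 CPM in 4T1 (10 cells) and 5.21 CPM in 67NR (27 cells), against 0.938 CPM in naive (6 cells). Il10ra, its receptor, was at 9.73, 19.9 and 6.30 CPM. Rgs16, which dampens chemokine receptors, was at 20.4 CPM in 4T1 and 43.3 CPM in 67NR. Hlf, a transcription factor of the PAR bZIP family, was at 18.2, 6.03 and 27.5 CPM.

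The B cell genes made up most of the highest ratios of 4T1 over 67NR. Of 9 B cell markers measured, 8 were higher in 4T1 than in 67NR, where 0.480% of all genes were, and 8 higher than in naive, where 0.927% were, and the 5% of 4T1 cycling cells with the most B cell marker UMIs held 70.0% of them. Without cells with 5 or more UMIs of defining B or myeloid genes, an alternative added after seeing the data, 24 genes and not 46 were higher in 4T1 than in 67NR. In 4T1, Ifitm1 had 470 UMIs in 20 cycling cells, 458 of them in CD8 cells, and 0 UMIs in the 207 naive cells. Against a floor of 3 UMIs over the naive group its log2 ratio was at least 6.43, and 23.6% of its UMIs came from 1 cell.

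As a description of what the rule picked, cycling cells were set against the 6074 other Cd3e cells, with 7.87% of 12453 genes higher and 11.3% lower. Nothing is read from these counts, since the rule used genes of the same cells. The histone gene Hist1h1b was at 1416 CPM against 9.86 CPM, cyclin A2 (Ccna2) at 128 against 1.40 CPM and stathmin (Stmn1) at 991 against 61.4 CPM. On the lower side were Il7r, the survival receptor of resting T cells, at 116 against 507 CPM, Btg1, an antiproliferative gene, at 461 against 1492 CPM, and Cdkn1b, the p27 inhibitor, at 102 against 218 CPM. Genes of interleukin-17-type and innate-like T cells were also lower, with Zbtb16 at 0.785 against 20.6 CPM and Il23r at 1.09 against 13.5 CPM.

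The same rule found few such cells in the other libraries. It took 122 of 6248 Cd3e cells in the naive axillary atlas (1.95%), 27 of them with a UMI of the B cell gene Cd79a, and 272 of 15223 in the mediastinal atlas (1.79%), 184 with Cd79a. Thinned to 5000 UMIs and without Cd79a, the axillary atlas held 45 of 4813 (0.935%), against 128 of 1982 Cd3e cells (6.46%) in the naive cells of the T cell library. The 2 libraries differ in sort and staining, whose part in this difference was not tested. Between 8 and 65 barcodes of the T cell library recurred in each of the other 4 libraries, 0 to 6 of them cycling cells.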

How the data were processed

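The deposited values are raw UMI counts per gene and droplet. Per the submitters' processing notes the authors used Cell Ranger 7.0 and the build mm10. The annotation, intron setting and cell calling were not given in the sources used here. Of 8117 barcodes, cells with at least 500 UMIs and at most 10% mitochondrial UMIs were kept, and a condition was called where its hashtag had 10 or more counts and 3 times the next (median 3427 against 51.0). No doublet caller was run: droplets without a single hashtag were left out. The library held 121022621 gene UMIs. Counts were summed per condition and lineage. Intervals were computed in Python 3.11.15 with numpy 2.4.6, scipy 1.17.1 and pandas 2.3.3, and drawn with matplotlib 3.10.9. The gene intervals were checked on simulated summed counts without spread between cells. That check cannot show how they behave where 1 cell holds many UMIs. Mixed lineage cells were kept apart. Named genes were the 12 highest and 12 lowest per comparison (without receptor and immunoglobulin segments, mitochondrial and unnamed loci), the largest ratios in each list and a set of T cell and cycle genes; others are said to be chosen later. The cells and lists were chosen with earlier results of these data known. Alternatives changed the rule, depth, lineages, minimum counts and single cells. Promoters are from RefSeq, GRCm38.p6.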

Additional observations from a re-analysis of the deposited data

How the results depend on the processing

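No paired analysis was possible because each condition is 1 sample without replicates. A second hashtag below 10 left 3 cycling cells and gave no usable value. In the order 4T1, 67NR, naive, asking for 2 UMIs of Mki67 and Top2a gave shares of 12.7%, 10.7% and 7.16%, CD8 shares of 13.8% and 12.4% in the tumour groups, a regulatory share of 10.7% in 67NR and other CD4 shares of 5.88% and 6.07% in 67NR and naive. Asking for either gene gave 37.7%, 36.5% and 29.0% (regulatory 42.1%, 42.8% and 32.4%, other CD4 32.7%, 29.6% and 29.7%, CD8 40.0%, 37.5% and 29.4%), ratios to naive of 1.30 and 1.26 (CD8 1.36 and 1.28), other CD4 cells at 17.8% of the 4T1 cycling cells, and 55 genes higher than naive in each tumour group. Then Ccl5 and Sbf2 in 4T1 and Tnfsf4 in 67NR turned to -0.13, -0.25 and -0.08 on the log2 scale, and Ccl1 in 67NR turned to 0.16 with lineages weighted to one mix. At 5000 UMIs the shares were 8.30%, 8.29% and 5.90% (ratio 1.41 for 4T1), regulatory 8.84%, 8.75% and 6.55%, other CD4 4.65%, 4.48% and 5.76%, CD8 10.6%, 9.70% and 5.35%, with regulatory cells 13.3% and 14.1% of the cycling cells in 4T1 and naive.

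Leaving out cells with 2 UMIs of B, myeloid or stromal lists kept only 24, 17 and 13 cycling cells. Shares were 3.83%, 2.62% and 1.91%, regulatory 1.33%, 0% and 2.56%, other CD4 2.80%, 1.37% and 2.90%, CD8 5.57%, 4.70% and 1.62%. The ratio to naive turned for regulatory cells in 4T1 (0.520) and other CD4 cells in 67NR (0.473) and was 3.44 and 2.90 for CD8. Regulatory cells were 4.17% and 0% of the tumour groups' cycling cells, CD8 70.8% and 82.4%, other CD4 16.7% in 4T1 and 30.8% in naive. Genes numbered 44 higher and 48 lower in 67NR than naive, and 84 and 18 in 4T1 than 67NR.

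A minimum of 20 UMIs gave 221 genes higher and 81 lower (4T1 over naive), 203 and 103 (67NR over naive) and 157 and 121 (4T1 over 67NR), and a minimum of 100 gave 40 and 6, 43 and 14, and 20 and 10. Without each gene's top cell 11 were lower in 4T1 than naive, and 29 higher and 14 lower in 4T1 than 67NR. Alternatives added after seeing the data put mixed cells in the lineage with more UMIs (regulatory 25.3% and 27.1%, CD8 57.4% and 56.0% in 4T1 and 67NR, other CD4 15.1% in 4T1), left out cells with 5 UMIs of defining B or myeloid markers (24 genes higher in 4T1 than 67NR), required 10% of cells, and left out a list's top cell or cells low in both cycle sums. A hashtag ratio of 10, 1000 UMIs per cell, 5% mitochondrial UMIs, centred ratios, equal cell weights and Cd3e cells as denominator moved no share, ratio of shares or count of genes beyond its limit; of single log2 ratios, equal cell weights moved 90, a hashtag ratio of 10 moved 9 and 5% mitochondrial UMIs moved 4. The cause of each change was not tested. Counting error in 207 naive cycling cells limits precision.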
